A study of Mus musculus with 6 samples.

Results

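The joining (J) genes of the TCRα locus, other than TRAJ31, were followed in P2+CD4+ T cells from LN of AireGW/+ Lyn-/- mice at 9 wk of age. P2 is a peptide of the retinal protein IRBP, the P2+ cells were sorted with a P2/I-Ab tetramer, and Aire is the thymic regulator of self antigen expression, of which these mice carry 1 GW allele, while Lyn, a Src-family kinase of immune cells, is absent. All animals carried both changes, so no library served as a wild-type control. The mice fell into those with uveitis, sequenced as dataset 1 and dataset 2, and those without uveitis, sequenced as 1 dataset. Each of these 3 libraries was made from pooled mice, so a library is 1 sample, the condition without uveitis has no replicate, and no test between conditions was made. A member was any productive TRA contig (an assembled α-chain transcript with an open reading frame) whose J gene was a TRAJ other than TRAJ31. There were 944 such contigs of 1123 productive TRA contigs and of 3124 contigs of all kinds. Dataset 1 held 182 members in 165 cell barcodes, dataset 2 held 239 in 219 barcodes, and the dataset without uveitis held 523 in 451 barcodes.

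The variable part of TCRα is built in thymocytes by joining a V gene to a J gene, and the CDR3, the loop that meets the peptide, is made by the end of the V gene, the bases between, and the beginning of the J gene. The mouse J genes lie in a row between the V genes and the constant gene, with the highest numbers nearest to the V genes. A cell can rearrange the same allele again, replacing the first join by one between a V gene farther upstream and a J gene farther downstream, so the J number is commonly read as a position in the order of rearrangement. J genes numbered above 31 are called V-proximal here, and those below 31 distal.

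In the GRCm38 annotation (GENCODE), 60 TRAJ genes lie on the plus strand of chr14 over 63.8 kb, of which 51 are J genes and 9 are pseudogenes. With TRAJ31 left out there remained 50 J genes, 24 V-proximal and 26 distal (48% V-proximal). Between the V region and TRAJ61, the first J element, lie 177 kb. The J segments below are those that rank among the most used of a library or that carry α chains of the clonotypes that the study cloned, from the V-proximal to the distal end. Capitals mark the bases that belong to the CDR3, and the lower-case bases encode the framework that follows.
TRAJ47 (chr14:54171800-54171856): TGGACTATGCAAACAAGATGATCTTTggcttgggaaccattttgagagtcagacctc
TRAJ37 (chr14:54181518-54181577): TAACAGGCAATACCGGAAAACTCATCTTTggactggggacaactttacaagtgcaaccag
TRAJ23 (chr14:54196081-54196140): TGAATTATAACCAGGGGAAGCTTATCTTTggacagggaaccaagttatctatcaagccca
TRAJ22 (chr14:54197248-54197307): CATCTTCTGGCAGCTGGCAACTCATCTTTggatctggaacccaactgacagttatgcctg
TRAJ15 (chr14:54204422-54204481): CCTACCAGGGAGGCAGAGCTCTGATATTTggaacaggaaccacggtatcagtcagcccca
TRAJ13 (chr14:54205741-54205797): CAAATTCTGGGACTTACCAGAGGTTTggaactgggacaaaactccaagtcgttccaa
TRAJ12 (chr14:54206553-54206610): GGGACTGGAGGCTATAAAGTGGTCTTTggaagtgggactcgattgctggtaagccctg

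The α chains found in the most cells of each library show how these segments ended up in the CDR3. In the CDR3 sequences of the 3 most frequent chains per library, capitals mark the bases that match the J segment up to the end of the CDR3.
dataset 1, TRAV12D-3 TRAJ13: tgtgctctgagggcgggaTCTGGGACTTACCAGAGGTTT
dataset 1, TRAV16N TRAJ15: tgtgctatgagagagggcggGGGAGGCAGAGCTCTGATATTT
dataset 1, TRAV12-2 TRAJ47: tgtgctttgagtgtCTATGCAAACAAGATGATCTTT
dataset 2, TRAV12-2 TRAJ22: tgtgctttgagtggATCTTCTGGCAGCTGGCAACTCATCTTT
dataset 2, TRAV7-1 TRAJ33: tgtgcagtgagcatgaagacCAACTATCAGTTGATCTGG
dataset 2, TRAV12D-2 TRAJ15: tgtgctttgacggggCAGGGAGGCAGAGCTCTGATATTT
without uveitis, TRAV9N-4 TRAJ12: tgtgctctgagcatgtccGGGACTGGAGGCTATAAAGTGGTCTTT
without uveitis, TRAV14N-1 TRAJ52: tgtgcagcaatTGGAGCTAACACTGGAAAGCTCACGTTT
without uveitis, TRAV3D-3 TRAJ21: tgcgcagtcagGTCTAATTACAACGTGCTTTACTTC

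In dataset 1 these chains were found in 13, 9 and 8 cells, in dataset 2 in 16, 11 and 8 cells, and without uveitis in 22, 7 and 7 cells. In dataset 2, and likewise without uveitis, the last of these tied with another chain that is not shown. The chains shown used 19 to 28 bases of the J segment, and 6 of the 9 carried a distal J. The tied chains that are not shown, TRAV4-4-DV10 TRAJ43 and TRAV6-7-DV9 TRAJ47, both carried a V-proximal J, so that number depends on the choice among ties. TRAJ15 occurred among them in both uveitis datasets, with different V genes and different joins.

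Cells, clonotypes and distinct CDR3s were counted, since 1 expanded clone can carry a J gene into many cells. By cells, each chain of each barcode counted once, by clonotypes, each combination of an α chain with its β chain counted once, and by distinct CDR3, each J gene with its CDR3 nucleotide sequence counted once. There were 138, 134 and 446 clonotypes, and 123, 128 and 446 distinct CDR3s, in dataset 1, dataset 2 and the dataset without uveitis. Members rested on a median of 5, 5 and 7 UMIs (unique molecules), and 7.69%, 6.28% and 3.25% of them on 1 UMI. V-proximal and distal members had medians of 5 and 5, 4 and 5, and 7 and 7 UMIs. The intervals in parentheses are exact (Clopper-Pearson) 95% intervals and cover counting error only, not differences between mice or pools. 1 barcode was shared by dataset 2 and the dataset without uveitis.

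J genes along the whole row were used. Of the 50 J genes, 42 were found in at least 1 library, 21 on either side of TRAJ31, and 38 were found in every library. Dataset 1 used 39, dataset 2 used 41 and the dataset without uveitis 42, and no pseudogene was used. These numbers depend on library size. Among 123 distinct CDR3s, the size of dataset 1, the expected numbers were 39, 40.6 and 37.7, so the dataset without uveitis then had the fewest. Use was uneven, with the 5 leading genes of each library holding 30.9%, 26.6% and 25.3% of the distinct CDR3s, where even use would give each gene 2%. Counted in cells, the 5 leading genes held 34.6%, 39.3% and 27.9%.

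**Figure D1:**
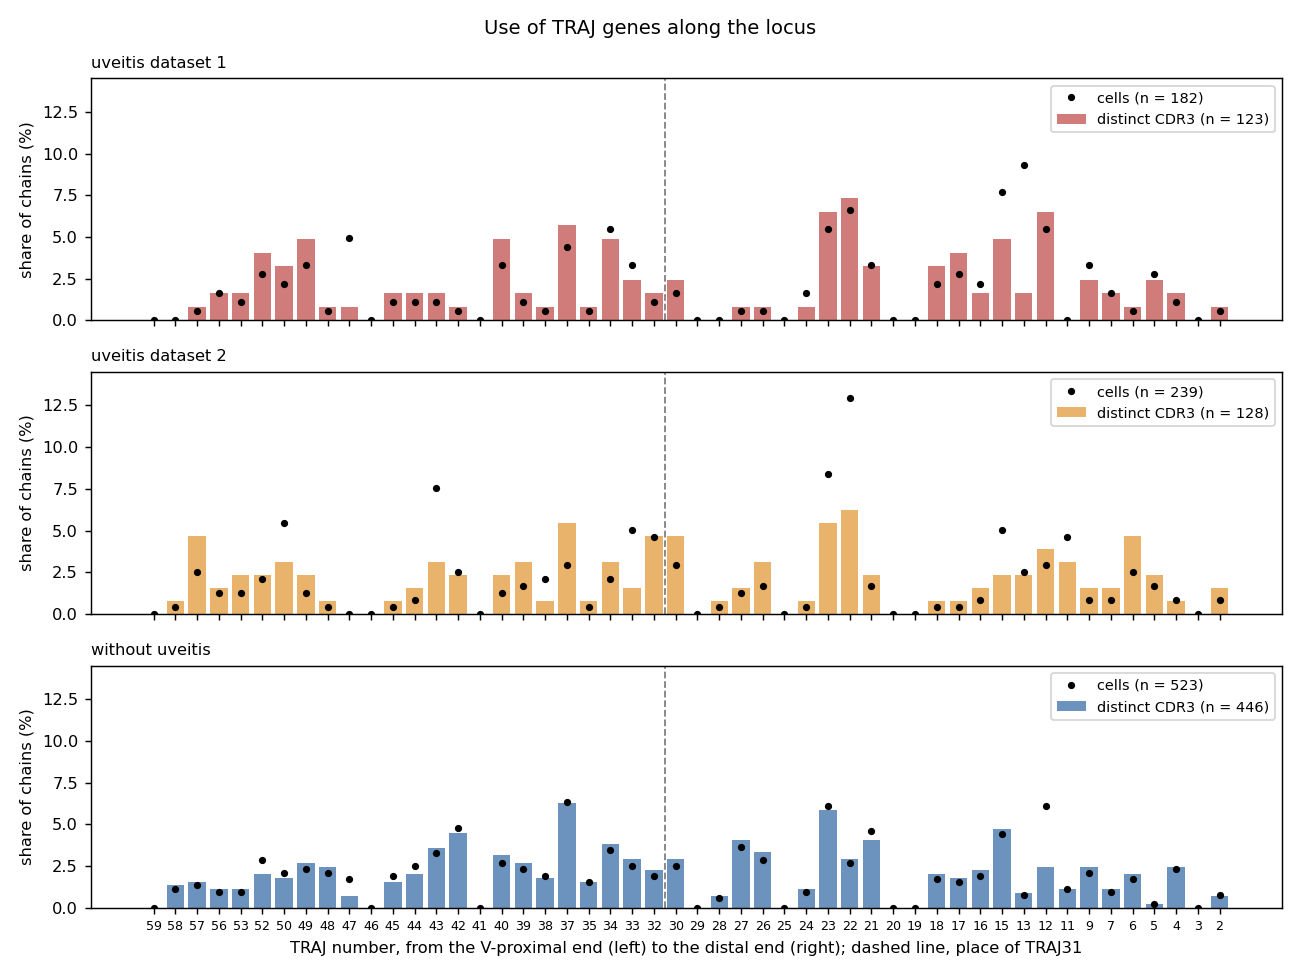
Share of TRA chains (%, linear axis) that used each of the 50 TRAJ genes, ordered from the V-proximal to the distal end, in the 3 libraries; bars count distinct CDR3s and points count cells. Points stand well above the bars where 1 chain was found in many cells, as for TRAJ13 in dataset 1 (17 cells, 2 distinct CDR3s), TRAJ22 in dataset 2 (31 cells, 8 distinct CDR3s) and TRAJ12 without uveitis (32 cells, 11 distinct CDR3s).

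TRAJ23 and TRAJ22, neighbours on the distal side, were among the leading genes of both uveitis datasets. TRAJ23 was among the 5 leading genes of all 3 libraries by cells and by distinct CDR3s, with 10, 20 and 32 cells and 8, 7 and 26 distinct CDR3s. TRAJ22 ranked first by distinct CDR3s in both uveitis datasets, with 9 of 123 and 8 of 128, and had 13 of 446 without uveitis. In cells, TRAJ22 accounted for 12 of 182 (6.59%), 31 of 239 (13%) and 14 of 523 (2.68%). The level of TRAJ22 in dataset 2 came largely from 1 chain of 16 cells, whereas in dataset 1 its largest chain had 2 cells.

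TRAJ37 was the V-proximal gene with the most distinct CDR3s in each library. By cells, TRAJ34 (10) and TRAJ47 (9) exceeded it (8) in dataset 1, and TRAJ43 (18), TRAJ50 (13), TRAJ33 (12) and TRAJ32 (11) exceeded it (7) in dataset 2. TRAJ37 led the dataset without uveitis with 33 cells (6.31%) and 28 distinct CDR3s (6.28%). It had 7 distinct CDR3s in each uveitis dataset (5.69% in dataset 1 and 5.47% in dataset 2). TRAJ42 and TRAJ27 had 20 and 18 distinct CDR3s without uveitis (4.48% and 4.04%). In dataset 1 they had 1 and 1 (0.813% each), and in dataset 2 they had 3 and 2 (2.34% and 1.56%). Their intervals by distinct CDR3s overlapped between the libraries. At the V-proximal end, TRAJ57 had 1, 6 and 7 distinct CDR3s (0.813%, 4.69% and 1.57%) in dataset 1, dataset 2 and the dataset without uveitis.

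TRAJ13, TRAJ15 and TRAJ47 carry the α chains of clonotypes that the study cloned from dataset 1. TRAJ13 was the first gene of dataset 1 by cells, with 17 of 182 (9.34%), of which 13 belonged to 1 chain and which came from 2 distinct CDR3s. The other libraries had 6 and 4 cells with TRAJ13 (2.51% and 0.765%), from 3 and 4 distinct CDR3s. TRAJ47 was found in 9 cells of dataset 1 (4.95%) with 1 CDR3, and in 9 cells without uveitis (1.72%) with 3 distinct CDR3s. In dataset 2 it was found in 0 of 239 chains, which allows a share of up to 1.26%. TRAJ15 had 14, 12 and 23 cells (7.69%, 5.02% and 4.40%) from 6, 3 and 21 distinct CDR3s (4.88%, 2.34% and 4.71%). Since these genes were chosen for expanded clones of dataset 1, their high numbers of cells there are a description only.

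By cells, the intervals of dataset 1 and dataset 2 did not overlap for 4 of the 50 genes (8%), namely TRAJ47, TRAJ43, TRAJ13 and TRAJ11. Against the library without uveitis, dataset 1 stood apart for 2 genes (4%), TRAJ42 and TRAJ13, and dataset 2 for 1 gene (2%), TRAJ22. By cells, more genes thus stood apart between the uveitis datasets than between either of them and the dataset without uveitis. The intervals by cells count the cells of 1 clone as separate draws. They are too narrow where 1 chain was found in many cells, as for TRAJ13 in dataset 1, so these numbers do not rank the libraries by likeness. By clonotypes and by distinct CDR3s no gene stood apart in any of the 3 comparisons (0%). The shares by distinct CDR3s followed each other across the 50 genes with a Spearman correlation of 0.64 between the uveitis datasets, and of 0.69 and 0.68 of these with the dataset without uveitis. The points share the 8 genes found in no library, so these values describe likeness of the profiles and are given without a test.

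The 8 J genes found in no chain were TRAJ59, TRAJ46, TRAJ41, TRAJ29, TRAJ25, TRAJ20, TRAJ19 and TRAJ3, and 5 of these are distal. None was named in a nonproductive TRA contig either. The 0 counts allow shares of up to 2.44%, 2.34% and 0.673% of the distinct CDR3s in dataset 1, dataset 2 and the dataset without uveitis. A J segment normally holds a codon for phenylalanine or tryptophan (TTT, TTC or TGG) followed by the codons GGN, NNN and GGN, at which the CDR3 ends. Searched on the coding strand in any frame, this motif was present in 45 of the 60 annotated segments, in 41 of the 42 used genes, in 2 of the 8 unused genes (TRAJ46 and TRAJ25), and in 1 of the 9 pseudogenes (TRAJ54). Both unused segments with the motif and 2 of those without are shown, with no capitals since no CDR3 ended in them.
TRAJ46 (chr14:54172336-54172398): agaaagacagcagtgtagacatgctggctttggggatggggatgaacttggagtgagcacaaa
TRAJ41 (chr14:54176271-54176325): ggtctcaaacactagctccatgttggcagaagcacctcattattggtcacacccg
TRAJ25 (chr14:54194815-54194871): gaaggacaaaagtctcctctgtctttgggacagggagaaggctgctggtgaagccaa
TRAJ3 (chr14:54217292-54217357): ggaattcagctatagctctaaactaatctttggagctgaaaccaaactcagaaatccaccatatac

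Of the 42 used genes, 40 had the motif exactly where their CDR3s ended. The exceptions were TRAJ44, which lacks it, and TRAJ7, which holds it in another frame, and the full CDR3 end of both is the leucine codon TTG.

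The V-proximal share was near the share of annotated genes on that side. Of the distinct CDR3s, 57 of 123 in dataset 1 (46.3%, 37.3 to 55.6%), 61 of 128 in dataset 2 (47.7%, 38.8 to 56.7%) and 227 of 446 without uveitis (50.9%, 46.2 to 55.6%) had a V-proximal J. By clonotypes the shares were 43.5%, 45.5% and 50.9%. By cells they were 40.7% (33.5 to 48.2%), 46.0% (39.6 to 52.6%) and 50.5% (46.1 to 54.8%). All intervals within a way of counting overlapped.

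**Figure D2:**
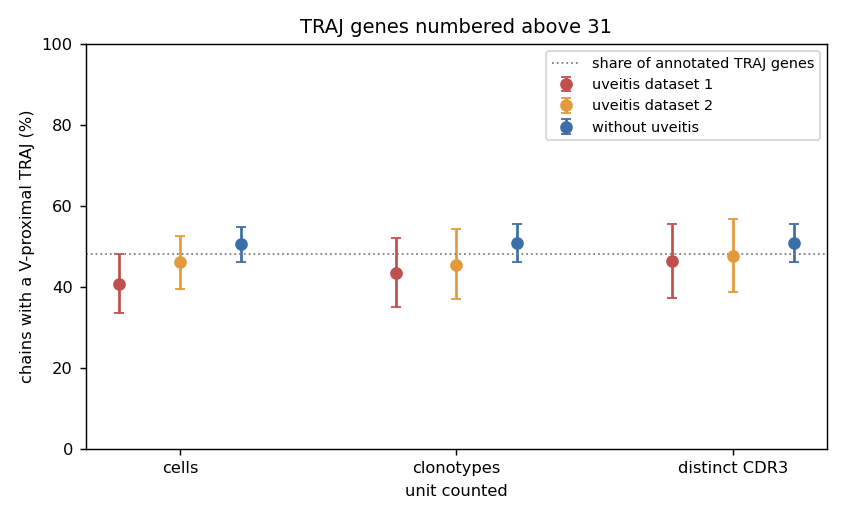
Share of TRA chains with a TRAJ numbered above 31 (%, with exact 95% intervals), by cells, clonotypes and distinct CDR3s in the 3 libraries; the dotted line is the 48% of annotated J genes on that side. By distinct CDR3s the 3 shares lie between 46.3% and 50.9%, and the intervals of the libraries overlap in each way of counting.

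Counting cells in place of distinct CDR3s lowered the V-proximal share of dataset 1 by the most. The share was higher without uveitis than in dataset 1 by 9.82 percentage points by cells, 7.42 by clonotypes and 4.56 by distinct CDR3s. Against dataset 2 it was higher by 4.45, 5.37 and 3.24 points. Chains found in more than 1 cell made up 6 of 61 V-proximal and 13 of 73 distal chains in dataset 1, 16 of 61 and 22 of 69 in dataset 2, and 15 of 229 and 10 of 220 without uveitis. The largest chain was distal in each library, with 13, 16 and 22 cells. The median J number of the distinct CDR3s was 26, 30 and 32.

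In finer steps and by distinct CDR3s, TRAJ32 to TRAJ40, near the middle of the row, were used most per annotated gene in every library. By cells this held only without uveitis, while TRAJ11 to TRAJ20 led dataset 1 (3.30% per gene against 2.47%) and TRAJ21 to TRAJ30 led dataset 2 (2.97% against 2.51%). By clonotypes TRAJ21 to TRAJ30 led dataset 2 as well (2.61% against 2.52%). All values per gene here divide by the annotated J genes of a step. Genes found in no chain lie in every step except TRAJ32 to TRAJ40 and lower the values of the others. Per gene in use, TRAJ32 to TRAJ40 led in no library by distinct CDR3s. Without uveitis, the 8 genes TRAJ32 to TRAJ40 took 24.4% of the distinct CDR3s, which is 3.05% per gene, and the 10 genes TRAJ21 to TRAJ30 took 24.9%, or 2.49% per gene. The 6 genes from TRAJ51 upward took 7.17% (1.20% per gene), and the 7 genes from TRAJ10 downward 8.97% (1.28% per gene). Dataset 1 had 2.85% and 2.20% per gene in the middle steps, and 1.36% and 1.39% at the ends. In dataset 2 these values were 2.73% and 2.50%, and 1.95% and 1.79%. TRAJ11 to TRAJ20 had 2.44% per gene in dataset 1, above TRAJ21 to TRAJ30 there, but 1.65% in dataset 2 and 1.69% without uveitis. The ends were the least used steps in dataset 1 and without uveitis, whereas in dataset 2 TRAJ41 to TRAJ50 were, with 1.41% per gene. Next to the gene that was left out, TRAJ32 had 2, 6 and 10 distinct CDR3s and TRAJ30 had 3, 6 and 13, whereas TRAJ31 itself had 13, 12 and 29.

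The J position moved with the V position. The V region was divided into 3 equal stretches of 517 kb from chr14:52427928-53977678, and each chain was placed by its V gene, of which all 85 were matched by name. Among distinct chains with a V gene in the stretch nearest to the J genes, 43 of 67 in dataset 1 (64.2%, 51.5 to 75.5%) had a V-proximal J. In dataset 2 this held for 42 of 65 (64.6%, 51.8 to 76.1%), and without uveitis for 152 of 217 (70.0%, 63.5 to 76.1%). In the middle stretch it held for 10 of 39, 11 of 35 and 44 of 141 chains (25.6%, 31.4% and 31.2%), and in the farthest for 8 of 28, 8 of 30 and 33 of 91 (28.6%, 26.7% and 36.3%). The intervals of the nearest and the middle stretch did not overlap in any library, while the middle and the farthest stretch did not differ beyond theirs. The median J number was 37 in the nearest stretch of every library, and 17 to 23 elsewhere.

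Many V genes of the mouse exist in near-identical copies, named with D or N, which lie in the middle and farthest stretches, so a chain may be named for the wrong copy. With each copy placed at its original, the V-proximal share of the nearest stretch was 50.9%, 48.6% and 54.5% and that of the middle stretch 20%, 33.3% and 36.2%, and their intervals overlapped in all 3 libraries. The separation of the nearest from the middle stretch thus rests on the copies as named. In the farthest stretch, the merged copies left 0 of 5, 2 of 4 and 2 of 13 V-proximal chains. Without uveitis, this interval (1.92 to 45.4%) still lay below that of the nearest stretch (49.3 to 59.6%). In dataset 1 and dataset 2 the intervals of these stretches overlapped. The Spearman correlation of V position with J number over distinct chains (n = 134, 130 and 449) was 0.42, 0.40 and 0.40 with the names as given, and 0.23, 0.26 and 0.23 with the copies merged. As named, however, originals and copies of the same genes differed in their J genes. Originals were joined to a V-proximal J in 57.1%, 62.3% and 62.4% of distinct chains, D copies in 29.0%, 20.6% and 36.7%, and N copies in 32.1%, 39.1% and 31.6%. V genes without a copy, most of which lie in the nearest stretch, had 57.9%, 60.0% and 72.5%. In dataset 2 and without uveitis the interval of the D copies lay wholly below that of the originals, and without uveitis that of the N copies did too.

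**Figure D3:**
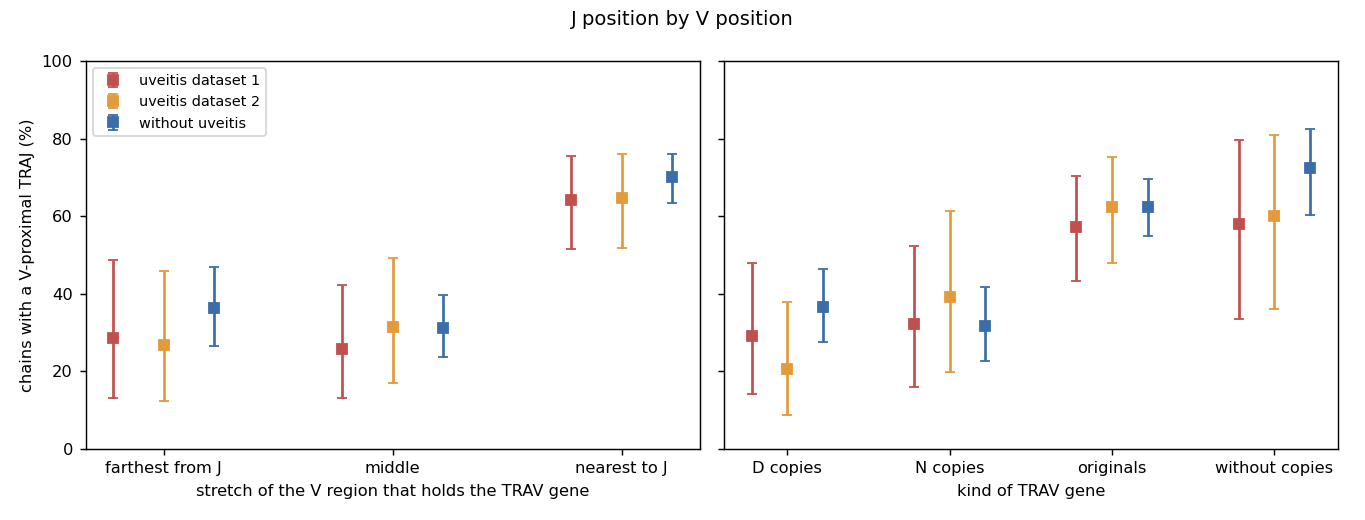
Share of distinct TRA chains with a V-proximal TRAJ (%, with exact 95% intervals) in the 3 libraries, by the stretch of the V region that holds the V gene (left) and by kind of V gene (right). Shares are 64.2% to 70.0% for V genes nearest to the J genes and 25.6% to 36.3% elsewhere, and originals of copied V genes lie above their D and N copies in each library.

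Among single V families, TRAV21 was joined to V-proximal J genes in 4 of 4 chains of dataset 2 and 7 of 7 without uveitis, with a median J number of 57. TRAV13 had 8 of 9 V-proximal chains in dataset 2 and 21 of 44 without uveitis. TRAV21, and TRAV13 in dataset 2, have fewer than 10 distinct chains, and the interval of TRAV21 in dataset 2 (39.8 to 100%) included the share of all chains. TRAV4 had 28 of 39 V-proximal chains without uveitis (71.8%, 55.1 to 85.0%), an interval that lies above the 51% of all chains of that library. This was so for 1 of the 12 families with at least 10 distinct chains there. In dataset 1 and dataset 2 TRAV4 had 6 of 12 and 8 of 13, with intervals that included the share of all chains. TRAV12 with 2 of 17 and TRAV6 with 2 of 14 lay below the 46.9% of all chains in dataset 2, whereas without uveitis they had 19 of 43 and 35 of 66. They were 2 of the 5 families with at least 10 distinct chains in dataset 2. The intervals were not adjusted for the number of families. In dataset 1 the intervals of all 6 families with at least 10 distinct chains included the share of all chains.

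The α chains of 1 barcode tended to lie close to each other on the row. T cells can carry 2 productive α rearrangements, 1 on each allele, and 17, 20 and 72 barcodes held exactly 2 member chains. Both lay on the same side of TRAJ31 in 12 of 17 barcodes of dataset 1 (70.6%, 44 to 89.7%), in 20 of 20 of dataset 2 (100%, 83.2 to 100%) and in 61 of 72 without uveitis (84.7%, 74.3 to 92.1%). For chains of different barcodes of the same library this share was 51.5%, 50.1% and 49.9%. The interval of dataset 1 includes that background, and those of the other libraries lie above it.

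The median distance between both J numbers was 8, 2.5 and 5, against 15 between chains of different barcodes in each library. With each distinct pair counted once it was 9 (6 to 18), 5 (1 to 12) and 5 (4 to 8), against 15, 16 and 14. The order-statistic interval of dataset 1 then included its background, and those of the other libraries lay below theirs. Chains at most 5 J numbers apart were found in 3 of 17, 11 of 20 and 42 of 72 barcodes (17.6%, 55.0% and 58.3%), against 21.9%, 19.4% and 20.6% between barcodes. The interval of dataset 1 (up to 43.4%) overlapped that of dataset 2 (31.5 to 76.9%) and lay below that without uveitis (46.1 to 69.8%), but with each distinct pair counted once, at 20% (up to 48.1%) and 51.7% (38.4 to 64.8%), dataset 1 and the library without uveitis overlapped too. Some of these barcodes belong to 1 clone, such as the 7 without uveitis with TRAV14N-1 TRAJ52 and TRAV6-7-DV9 TRAJ47, the 4 of dataset 2 with TRAV3-3 TRAJ42 and TRAV4-4-DV10 TRAJ43, and the 3 of dataset 1 with TRAV13D-3 TRAJ16 and TRAV7D-3 TRAJ9. With each distinct pair counted once, 10 of 15, 12 of 12 and 49 of 60 pairs lay on the same side. Over these pairs, taken in both orders, the Pearson correlation of the J numbers was 0.59, 0.81 and 0.78.

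**Figure D4:**
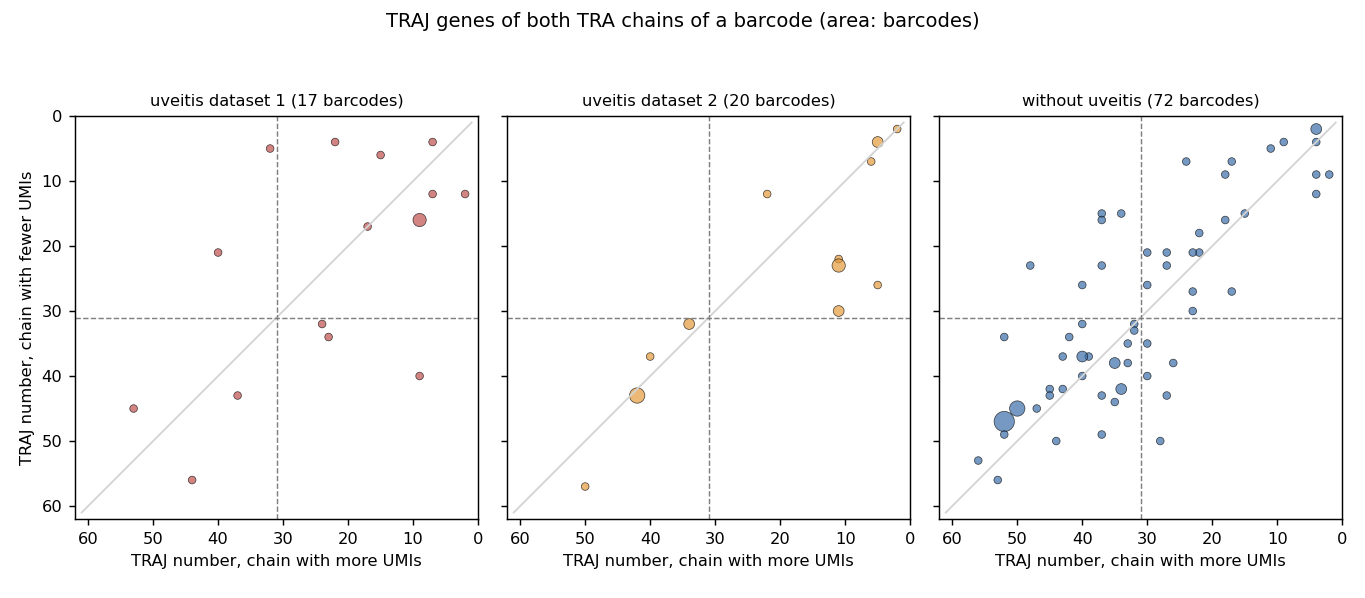
J numbers of both TRA chains of a barcode, the chain with more UMIs on the x axis and the chain with fewer on the y axis, both axes from high to low numbers; the area of a point is the number of barcodes, the grey line marks equal numbers and the dashed lines TRAJ31. Pairs without uveitis (61 of 72) and in dataset 2 (20 of 20) fill the quadrants in which both chains lie on the same side.

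The V genes of a pair were also closer than those of different barcodes in each library, with median distances of 289, 143 and 165 kb against 314, 340 and 331 kb. With each distinct pair counted once, the distances within a pair were 289, 204 and 165 kb. These distances have no intervals and rest on the V gene copies as named, and in dataset 1 the difference was small. A droplet with 2 cells would also give 2 α chains. Of the paired barcodes, 0, 0 and 1 had more than 1 productive TRB, and the weaker chain had a median of 3, 4 and 5 UMIs. The part of such droplets in the result was not tested. Both chains named the same J gene in 1, 1 and 4 barcodes.

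Nonproductive α contigs, those not listed as productive, allowed the same comparison. Of those with a J gene, 48 of 70, 23 of 30 and 76 of 117 also named a V gene. Whether some of them were incomplete contigs was not tested. Where a barcode held 1 member and a nonproductive TRA contig with a V and a J gene, both lay on the same side in 18 of 25, 10 of 12 and 45 of 58 barcodes (72.0%, 83.3% and 77.6%). Chains of different barcodes gave 49.9%, 51.5% and 50.1%. The median distance was 4, 7 and 9 J numbers, against 15, 13 and 14. The member and the nonproductive contig named the same J gene in 1, 0 and 4 barcodes. The nonproductive contigs were V-proximal in 24 of 48, 7 of 23 and 46 of 76 (50%, 30.4% and 60.5%), and these intervals all included the productive share of their own library by distinct CDR3s.

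CDR3 length was close on both sides of the row. The median was 14 residues for V-proximal and 13.5 for distal CDR3s in dataset 1, 14 and 14 in dataset 2, and 14 and 14 without uveitis, with 95% order-statistic intervals of 13 to 14 in each. The J segments of both sides offer CDR3 bases in the same range of 26 to 35, with medians of 31 for the 21 V-proximal and 29 for the 21 distal genes in use. A median of 2 J bases were missing from distal CDR3s in every library, and of 4, 3 and 3 from V-proximal ones.

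Between J genes, length did follow the segment. Over J genes with at least 3 distinct CDR3s, the mean length rose with the CDR3 bases of the segment, with a Spearman correlation of 0.83 over 17 genes in dataset 1, 0.51 over 23 in dataset 2 and 0.80 over 41 without uveitis. These points share the segment itself, since its bases are part of the CDR3. TRAJ53 and TRAJ52, which offer 35 bases, had the longest mean of the dataset without uveitis (16.6 residues ± 1.14, SD, n = 5 CDR3s) and of dataset 2 (15.7 residues, n = 3 CDR3s). TRAJ21 with 26 bases had the shortest of dataset 1 (12.5 residues, n = 4 CDR3s). The longest of dataset 1, TRAJ5 with 15.3 residues, offers 31 bases, and the shortest of dataset 2, TRAJ15 with 12.3 residues, offers 29, so these extremes did not lie at the ends of the range.

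**Figure D5:**
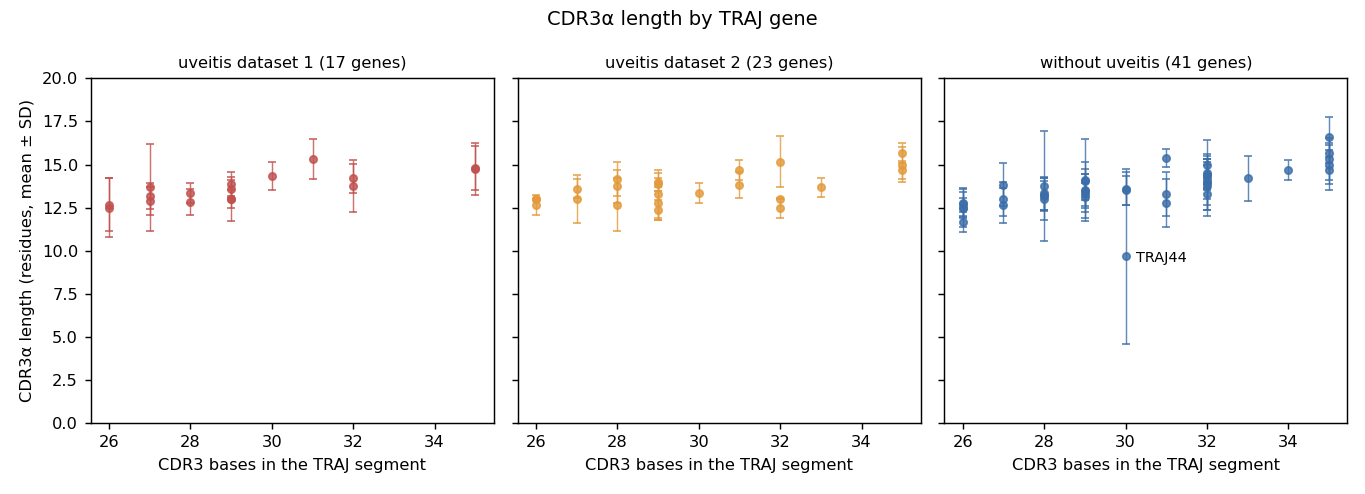
Mean CDR3α length (residues, error bars SD over distinct CDR3s) against the number of CDR3 bases in the J segment, 1 point per TRAJ gene with at least 3 distinct CDR3s, in the 3 libraries. Means rise with the segment from 26 to 35 bases, and TRAJ44 (9.67 residues without uveitis) lies below genes with segments of like length.

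TRAJ44 lay below the other genes, and some of its CDR3s were listed with an early end. These had 5 to 6 residues and ended 24 bases (8 codons) before the full end, after the first 6 bases of the segment. That was so for 2 of 2 distinct CDR3s of dataset 1, 0 of 2 of dataset 2 and 5 of 9 without uveitis, while full CDR3s had 14 to 16 residues. The segment goes on after the early end with GGC, AGT and GGT, which match the codons GGN, NNN and GGN of the motif. Whether the early end is a CDR3 call of the assembly was not tested, so the short lengths and the low mean of TRAJ44 depend on where the CDR3 was listed to end. The segment is shown with an early and a full CDR3 of the dataset without uveitis, in which capitals mark the bases from TRAJ44.
TRAJ44 (chr14:54173690-54173750): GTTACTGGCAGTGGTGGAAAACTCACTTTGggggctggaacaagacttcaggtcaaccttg
early end, TRAV9-2 TRAJ44: tgtgttttgagTACT
full end, TRAV12-2 TRAJ44: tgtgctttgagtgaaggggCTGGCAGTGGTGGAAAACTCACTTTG

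With TRAJ44 left out, the Spearman correlation without uveitis was 0.84 over 40 genes, and the shortest mean was that of TRAJ47, with 11.7 residues. At the other extreme, 2 CDR3s of the dataset without uveitis were listed with 24 residues, both with TRAV3N-3, 1 with TRAJ15 and 1 with TRAJ30. Both hold, farther in and in another frame, the bases tgcgcagtca that begin the CDR3 of the TRAV3D-3 chain shown above. Their length thus depends on where the CDR3 was listed to start. Whether that start is a CDR3 call of the assembly was not tested.

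Few chains were shared between the pools. Each pair of libraries had 1 nucleotide CDR3 with its J gene in common, which used TRAJ22 between the uveitis datasets, TRAJ43 for dataset 1 with the library without uveitis, and TRAJ18 for dataset 2 with that library. By amino acid sequence, 5, 3 and 6 were shared. The 5 of the uveitis datasets were 4.07% of the sequences of dataset 1 and 4.10% of those of dataset 2, and they used TRAJ50, TRAJ42 and TRAJ22. The most frequent of them, the TRAJ22 sequence of the largest chain of dataset 2 shown above, was found in 1 and 18 cells, and in 0 of 523 chains without uveitis, which allows up to 0.574%.

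Invariant T cells join fixed V and J genes, TRAV11 with TRAJ18 in iNKT cells and TRAV1 with TRAJ33 in MAIT cells. The TRAV11 and TRAJ18 combination was found in 0, 0 and 1 chains and the TRAV1 and TRAJ33 combination in 0 of all 944, although TRAJ18 was used in 4, 1 and 9 chains and TRAJ33 in 6, 12 and 13.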

How the data were processed

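RNA of sorted P2+CD4+ T cells was processed with the 10x Genomics Chromium Single Cell 5′ kit, and the authors aligned and assembled the TCR reads with Cell Ranger against a mouse VDJ reference. The deposited values are counts of reads and UMIs per contig, without normalization, and each contig is listed with its V and J genes and CDR3. The 3 TCR libraries were grouped by their labels. The 3 mRNA libraries of the same cells were not used here. Member chains had at least 1 UMI, and all other contig filters were those of the authors. Members, lists and comparisons were chosen with earlier results of these data known. The named J genes are the 5 leading ones of each library by cells and by distinct CDR3s, those of the cloned clonotypes, those used by no chain, and those of invariant T cells. TRAJ42, TRAJ43 and TRAJ11 are also named where their intervals did not overlap, and TRAJ44, TRAJ7, TRAJ5, TRAJ53 and TRAJ52 were named after their values were seen. Chains of a clonotype were paired with the TRB with the most UMIs, and barcodes without a TRB were left out of clonotypes. The depth was 5302, 7439 and 21408 UMIs over all contigs of dataset 1, dataset 2 and the dataset without uveitis. Shares have Clopper-Pearson 95% intervals, and beside a 0 stands the share of 3 counts as an upper limit. Positions and J sequences came from GENCODE M21 (GRCm38), which may differ from the reference of the authors. On a simulated contig table, 12 of 12 known values were recovered. The tools were scipy 1.17.1, numpy 2.4.6, pandas 2.3.3 and matplotlib 3.10.9 under Python 3.11.15.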

Additional observations from a re-analysis of the deposited data

Results flagged for a closer look

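Contigs outside the TRA chains also held TRAJ genes. A contig that joined TRAJ50 to TRBC1, a constant gene of the β chain, was found 21 times among 676 contigs of dataset 1 (3.11%, 1.93 to 4.71%), once among 800 of dataset 2 and 86 times among 1648 without uveitis (5.22%, 4.19 to 6.40%). These contigs lay in 21, 1 and 86 barcodes, none was productive, 20 of 21, 0 of 1 and 86 of 86 named no V gene, and their median was 1 UMI in dataset 1 and without uveitis. They stand out because no comparison of the report uses them and because in dataset 1 and without uveitis their number was above what a count of 0 allows, which it was not in dataset 2, while TRAJ50 itself was used by 4, 13 and 11 member chains. Whether they arise in assembly or annotation was not tested. Productive contigs that joined a TRDV gene to a TRAJ gene were found 6 times among the 1648 contigs without uveitis. These used TRAJ34, TRAJ37, TRAJ42, TRAJ52 and TRAJ53. In dataset 1 and dataset 2 there were 0, which allows up to 0.444% and 0.375% of their contigs, so no difference between the libraries is shown.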

How the results depend on the processing

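No paired analysis was possible because the groups that share replicate numbers are TCR and mRNA libraries of the same cells, and mRNA files were not analysed here. Of 189 recomputed values, 162 stayed within the 95% interval of the reported value (gene numbers: within 1.5 times). With the boundary at J number 40, the V-proximal share by distinct CDR3s was 23.6%, 25.8%, 26.5% and, for both uveitis datasets combined, 24.7%. By cells it was 20.9%, 25.9%, 27.9% and 23.8%, and by clonotypes 21%, 25.4%, 26.5% and 23.2%. With the boundary at 25, the shares that left their interval were, by distinct CDR3s, 57.8% in dataset 2, 61.9% without uveitis and 54.2% combined, by cells 60.0% without uveitis, and by clonotypes 55.2%, 61.9% and 51.1%. Counting TRAJ31 as V-proximal gave 63.9% by cells in dataset 2, 57.8% combined, and 51.1% by clonotypes combined, and counting it as distal gave 30.8% and 32.7% by cells. Merging D and N copies gave 50.9%, 48.6% and 54.5% V-proximal chains for V genes nearest to the J genes. Left out in turn, the uveitis datasets gave V-proximal shares of 46.3% to 47.7% by distinct CDR3s, 40.7% to 46.0% by cells and 43.5% to 45.5% by clonotypes, and 39 to 41 J genes. The remaining alternatives, 2 of them (pairs of the same J gene, TRAJ44) chosen after seeing the data, moved no value out of its interval. Small libraries limit single J genes most: in the uveitis datasets a gene found in 0 distinct CDR3s may have a share of up to 2.44% and 2.34%, above the even share of 2%.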

Other observations

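CDR3s with TRAJ7 were listed with 2 different ends. In 1 of 2 distinct CDR3s of dataset 1, 0 of 2 of dataset 2 and 1 of 5 without uveitis, the CDR3 ended at base 27 of the segment in place of base 28. Base 27 is also where the first codon of the motif ends in TRAJ7. Whether the end at base 27 is a CDR3 call of the assembly was not tested.

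A further 2, 7 and 6 barcodes of dataset 1, dataset 2 and the dataset without uveitis held a member chain beside a TRAJ31 chain and were not among the pairs.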
